A study of Mus musculus with 16 samples.

Results

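The FoxO genes encode forkhead transcription factors that bind DNA at a short core motif and, in skeletal muscle, drive the genes of muscle wasting. Rows of the deposited expression table whose Ensembl identifier maps to a Foxo symbol were taken, which gave 4 of 12021 listed genes: Foxo1, Foxo3, Foxo4 and Foxo6. They were measured by sequencing ribosome-depleted total RNA from the tibialis anterior, a fast leg muscle, of cachectic mice and of controls in 4 tumour models labelled KPP, KPC, C26 and LLC. Each of the 8 groups had 2 libraries. KPP cachectic and KPP control mice were of the strain C57BL/6J. KPC cachectic and KPC control mice were of a mixed strain. C26 cachectic and C26 control mice were CD2F1. LLC cachectic and LLC control mice were again C57BL/6J. KPP and LLC share a strain, and in comparisons of KPC or C26 with another model the model and the strain cannot be told apart. The labels used here give no age, tumour dose or time of sampling. They do not say that the libraries of a group came from separate mice, so the p-values measure the spread between these samples, which may be technical.

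Insulin and IGF1 signal through PI3 kinase and Akt, and Akt phosphorylates FoxO proteins, which then leave the nucleus. When this signal is low, FoxO1 and FoxO3 enter the nucleus and switch on ubiquitin ligases such as atrogin-1 (Fbxo32) and MuRF1 (Trim63) and genes of autophagy. FoxO activity is thus set largely by phosphorylation and location of the protein, which RNA does not show. FoxO6 differs from the other members in staying mostly in the nucleus.

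The promoters shown here are those of Foxo1 and Foxo3, which both lay higher in cachectic muscle, and of Trim63 and Gabarapl1, target genes whose promoters held a match to a FoxO motif. The sequences run from 250 bases before to 50 bases after the annotated start, 5′ to 3′ on the strand of the gene (RefSeq, GRCm38.p6). Capitals mark matches to the FoxO core GTAAACA, its variant ATAAACA or the palindromic glucocorticoid response element, each searched on both strands. None of these motifs overlapped another in the 4 promoters. The windows are chr3:52268087-52268386 (plus strand) for Foxo1, chr10:42276646-42276945 (minus strand) for Foxo3, chr4:134314870-134315169 (plus strand) for Trim63 and chr6:129532942-129533241 (plus strand) for Gabarapl1.
Foxo1: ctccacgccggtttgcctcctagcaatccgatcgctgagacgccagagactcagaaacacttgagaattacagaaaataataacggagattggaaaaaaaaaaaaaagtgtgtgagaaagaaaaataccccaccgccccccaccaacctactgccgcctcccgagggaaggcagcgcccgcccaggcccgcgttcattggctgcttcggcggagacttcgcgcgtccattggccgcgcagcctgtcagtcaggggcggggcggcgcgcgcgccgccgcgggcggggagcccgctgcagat
Foxo3: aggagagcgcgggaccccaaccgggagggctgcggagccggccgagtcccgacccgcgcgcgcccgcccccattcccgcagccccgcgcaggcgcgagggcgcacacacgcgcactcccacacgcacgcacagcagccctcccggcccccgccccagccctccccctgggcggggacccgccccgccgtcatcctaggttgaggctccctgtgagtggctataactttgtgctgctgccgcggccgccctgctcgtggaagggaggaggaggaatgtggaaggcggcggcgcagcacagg
Trim63: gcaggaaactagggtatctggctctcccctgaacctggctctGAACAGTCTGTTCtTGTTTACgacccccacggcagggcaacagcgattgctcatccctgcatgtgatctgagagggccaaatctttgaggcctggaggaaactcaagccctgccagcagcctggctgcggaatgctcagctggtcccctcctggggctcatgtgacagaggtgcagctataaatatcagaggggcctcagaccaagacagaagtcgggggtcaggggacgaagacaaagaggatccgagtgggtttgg
Gabarapl1: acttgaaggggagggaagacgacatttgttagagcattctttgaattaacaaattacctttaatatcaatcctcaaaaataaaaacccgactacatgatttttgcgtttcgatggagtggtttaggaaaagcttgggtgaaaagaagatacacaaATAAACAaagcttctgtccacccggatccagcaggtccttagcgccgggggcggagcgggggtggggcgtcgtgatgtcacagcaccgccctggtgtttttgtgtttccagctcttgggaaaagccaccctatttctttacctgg
The Foxo1 and Foxo3 windows held none of these letters, and were 61.3% and 75.0% G and C. The Trim63 window held the glucocorticoid element GAACAGTCTGTTC at position -208 from the start and TGTTTAC at position -194, the core read on the other strand. The Gabarapl1 window held ATAAACA at position -95. Of 32851 promoters of the same length, 3.65% held GTAAACA, 4.60% held ATAAACA and 0.475% held the glucocorticoid element. Counted by gene, the shares were 4.05%, 5.28% and 0.54% of 27025 genes. Among 35 FoxO target genes with a promoter in the table, GTAAACA was found in 5 (Bcl2l11, Btg1, Sesn1, Trim63 and Txnip), ATAAACA in Gabarapl1, and the glucocorticoid element in Trim63 and Txnip. Foxo4, Foxo6 and Fbxo32 have no entry in that table.

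Levels are given as CPM, a gene's count plus 0.5, scaled to 1000000 counted reads in its library. The libraries held 28584279 to 46972882 reads. The labelled tissue matched its markers, with 8 fibre genes summing to between 265000 and 321800 CPM in every library. Differences are log2 values, cachectic minus control, with SE and n = 2 libraries per group. The test was limma, in 1 fit over all 16 libraries, with Benjamini-Hochberg adjustment across the whole table and a call at an adjusted p under 0.05. A whole muscle was sampled, so fewer cells of a type and less RNA per cell cannot be told apart. KPC cachectic 2 stood apart from its group, with 12.3% of its reads from mitochondrially encoded genes, against 5.73% to 8.91% in the other 7 cachectic libraries and 9.10% to 13.04% in the controls. The LLC cachectic libraries differed from each other, with erythroid markers at 2684 CPM in LLC cachectic 1 and 1242 in LLC cachectic 2. Those of C26 differed too, at 308 in C26 cachectic 1 and 949 in C26 cachectic 2. Which LLC or C26 library is unusual cannot be told from 2 per group. Changes that rest on KPC cachectic 2 or LLC cachectic 1 are given with and without them for the FoxO genes and some listed genes. Leaving out 1 library left 1 in its group, and the spread between libraries of that group was then not measured.

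Foxo6 was lower and Foxo3 higher in cachectic muscle of all 4 models. Foxo1 was higher in 3 models, most of all in C26, and Foxo4 differed little. Averaged over the models, Foxo3 rose 1.88-fold and Foxo1 rose 1.81-fold, while Foxo6 fell, to a level 7.83-fold lower. The background for these counts is wide: 41.1% of all genes were called for the mean change, 27.3% rising and 13.8% falling, so 2 FoxO genes rising and 1 falling is not a result particular to the family. With each library centred on its median gene, 51.4% of the genes called for the mean rose, against 66.5% as deposited, and in C26 43.0% rose, against 82.0%.

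**Figure D1:**
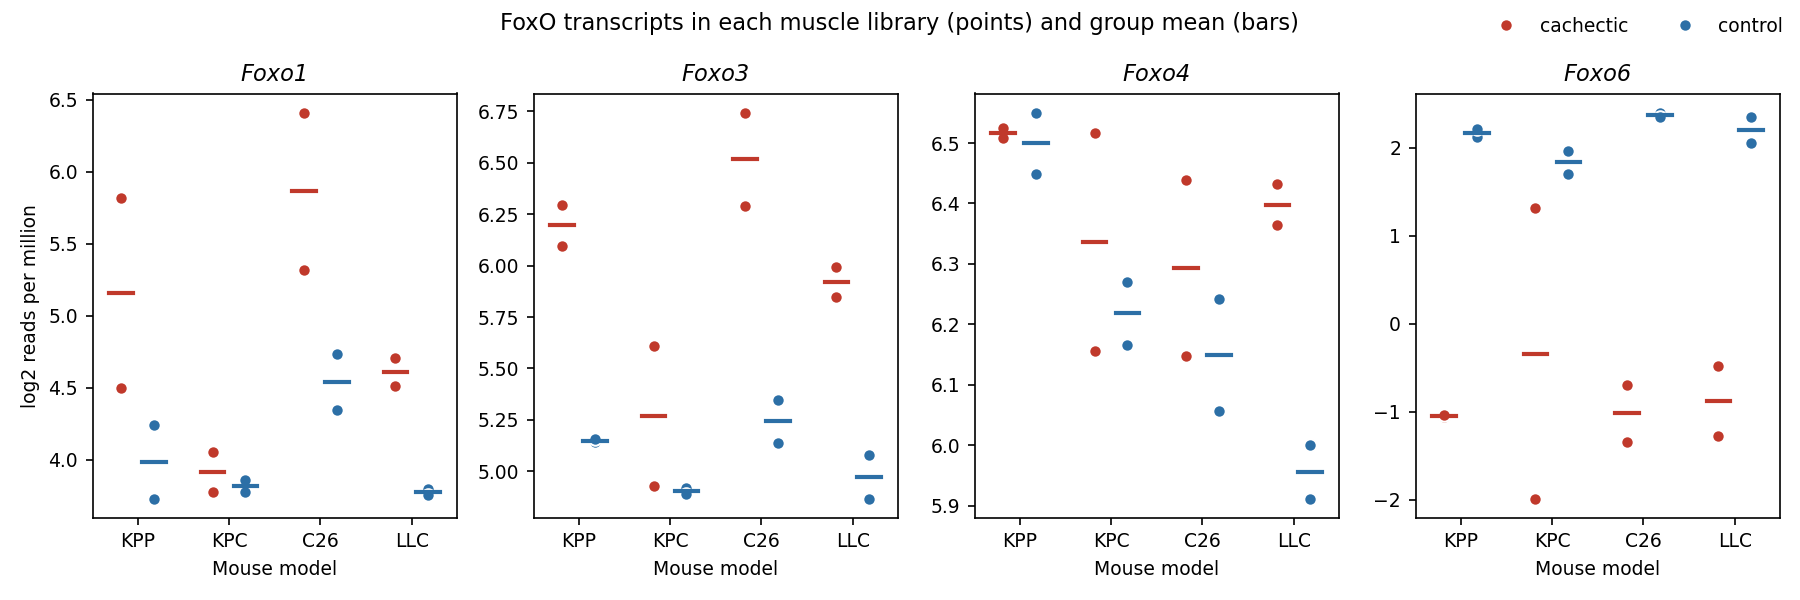
Level of each FoxO gene in every library, as log2 CPM, for the 4 models. Points are libraries and bars are means of 2 libraries, with cachectic in red left of control in blue, and each panel has its own vertical range. Foxo6 points of cachectic libraries lie below their controls in each model, and those of Foxo3 lie above.

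Foxo1 encodes the FoxO member best known for its part in the insulin response of liver and muscle. Its level was 56.2 and 22.6 CPM in KPP cachectic libraries, against 18.9 and 13.3 in KPP controls. In C26 it was 39.9 and 84.9 in cachectic libraries and 20.3 and 26.6 in controls. In LLC it was 22.8 and 26.1 in cachectic libraries and 13.9 and 13.5 in controls. The groups did not overlap in these 3 models, which was so for 58.6% of all genes in KPP (28.9% with cachectic higher), 76.5% in C26 (59.6% higher) and 57.4% in LLC (33.8% higher). In KPC the level was 16.6 and 13.7 in cachectic libraries and 14.5 and 13.7 in controls, and the groups overlapped.

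Foxo1 rose in C26 by 1.33 ± 0.39 (adjusted p = 0.0273), where 28.4% of all genes were called and 23.2% rose. With each library centred on its median gene the C26 difference was 1.09 and no longer passed (adjusted p = 0.0770), and it was 0.78 (adjusted p = 0.200) without C26 cachectic 2. The call was also lost without C26 control 1 or C26 control 2. The differences in KPP (1.17 ± 0.39, adjusted p = 0.113) and LLC (0.83 ± 0.39, adjusted p = 0.172) did not pass. In KPP the 95% interval ran from 0.33 to 2.01, and the value was 0.51 without KPP cachectic 1 and 1.83 without KPP cachectic 2. KPP cachectic 1, with the higher Foxo1, also had the higher sum of slow-fibre markers (3 measured of 5), at 345 CPM. The sum was 51.1 in KPP cachectic 2 and 45.3 and 53.0 in KPP controls. Its members moved apart in KPP, with Myh7 at 3.48 and Tnnt1 at 2.06 but Myl3 at -0.76. The part of slow fibres in the Foxo1 value was not tested. In KPC the difference was 0.10 ± 0.39 (95% interval -0.74 to 0.94). Averaged over the models Foxo1 rose by 0.86 ± 0.19 (adjusted p = 0.00516). An exact permutation of cachectic and control labels within each model, two-sided over 1296 arrangements, gave p = 0.00309 for this mean.

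Foxo3 encodes the member shown in mouse muscle to drive Fbxo32 and autophagy genes. Its level was 78.6 and 68.4 CPM in KPP cachectic libraries and 35.3 and 35.6 in KPP controls. In KPC it was 48.8 and 30.4 in cachectic libraries and 30.2 and 29.7 in controls. In C26 it was 78.4 and 107 in cachectic libraries and 35.2 and 40.7 in controls. In LLC it was 57.6 and 63.7 in cachectic libraries and 33.8 and 29.2 in controls. All 8 cachectic libraries thus lay above both of their controls, though KPC cachectic 2 did so by little. In KPC, 37.7% of all genes had groups that did not overlap, 15.8% with cachectic higher.

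Foxo3 rose in KPP by 1.05 ± 0.21 (adjusted p = 0.0366), in C26 by 1.28 ± 0.21 (adjusted p = 0.00386) and in LLC by 0.95 ± 0.21 (adjusted p = 0.0248). Of all genes, 1.78% were called in KPP (0.707% rising) and 7.08% in LLC (3.42% rising). The KPP call was lost when any of the 4 KPP libraries was left out (0.95 to 1.15). The LLC call was lost without either control or without LLC cachectic 1 (0.84 to 1.05), and the C26 call only without C26 control 1 (adjusted p = 0.0503). In KPC the difference was 0.36 ± 0.21 (adjusted p = 0.611), where 0 genes were called by limma, 1035 had an unadjusted p under 0.05, and voom weights on the recovered reads called 1. Without KPC cachectic 2 it was 0.70, with 1 KPC cachectic library left. The mean over the models was 0.91 ± 0.10 (adjusted p = 0.000371), and the exact permutation test gave p = 0.00154, the smallest that 1296 arrangements can give. Foxo1 and Foxo3 kept their mean calls whichever of the 16 libraries was left out (0.69 to 1.02 for Foxo1 and 0.82 to 0.99 for Foxo3).

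Foxo4, the X-linked member (chrX:101254528-101260873, plus strand, GRCm38), was at 92.1 and 91.0 CPM in KPP cachectic libraries and 87.4 and 93.7 in KPP controls. In KPC it was at 91.6 and 71.3 in cachectic libraries and 71.8 and 77.2 in controls. In C26 it was at 70.9 and 86.7 in cachectic libraries and 75.7 and 66.5 in controls. The groups overlapped in these 3 models but not in LLC, with 86.4 and 82.4 in cachectic libraries and 64.0 and 60.2 in controls. In LLC, 57.4% of all genes had groups that did not overlap, 33.8% with cachectic higher. The LLC difference of 0.44 ± 0.14 did not pass (adjusted p = 0.0742). The other differences were 0.02 in KPP (95% interval -0.30 to 0.33), 0.12 in KPC (-0.19 to 0.43) and 0.14 in C26 (-0.17 to 0.46). With libraries centred on their median gene the C26 value turned to -0.09. The mean of 0.18 ± 0.07 did not pass (adjusted p = 0.0609). It passed without KPC cachectic 2 (0.23, adjusted p = 0.0128), without C26 cachectic 1 (0.22, adjusted p = 0.0349) and without LLC cachectic 2 (0.19, adjusted p = 0.0466). The exact permutation test gave p = 0.0509.

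Foxo6 was the least read member and had the largest differences of the 4. In KPP it had 22 and 14 reads in cachectic libraries and 165 and 132 in controls, which is 0.479 and 0.485 against 4.37 and 4.64 CPM. In C26 it had 15 and 18 reads in cachectic libraries and 206 and 170 in controls. In LLC it had 17 and 25 reads in cachectic libraries and 139 and 192 in controls. KPC split: cachectic 1 had 9 reads and cachectic 2 had 77, against 123 and 156 in KPC controls. In every model both cachectic libraries lay below both controls, as for 29.7% of all genes in KPP, 22.0% in KPC, 16.9% in C26 and 23.6% in LLC. The counts in cachectic libraries carry a wide counting error, the 22 reads of KPP cachectic 1 having an exact 95% Poisson interval of 13.8 to 33.3. That interval covers counting error only.

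Foxo6 fell in KPP (-3.22 ± 0.72, adjusted p = 0.0470), in C26 (-3.40 ± 0.72, adjusted p = 0.00952) and in LLC (-3.08 ± 0.72, adjusted p = 0.0327). These are levels 9.34-fold, 10.5-fold and 8.47-fold lower, and the 0.5 added to each count before the log understates such changes slightly. Of all genes, 1.07% fell in KPP, 5.12% in C26 and 3.66% in LLC. The KPP call was lost when any KPP library was left out. The C26 call was lost without either control or without C26 cachectic 1, and the LLC call without either control or without LLC cachectic 1. The value stayed between -3.72 and -2.68 in these fits. In KPC the difference was -2.18 ± 0.72 (adjusted p = 0.547), and without KPC cachectic 2, which left 1 cachectic library, it was -3.83. The mean was -2.97 ± 0.36 (adjusted p = 0.000397), it was called whichever library was left out (-3.38 to -2.56), and the exact permutation test gave p = 0.00154.

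**Figure D2:**
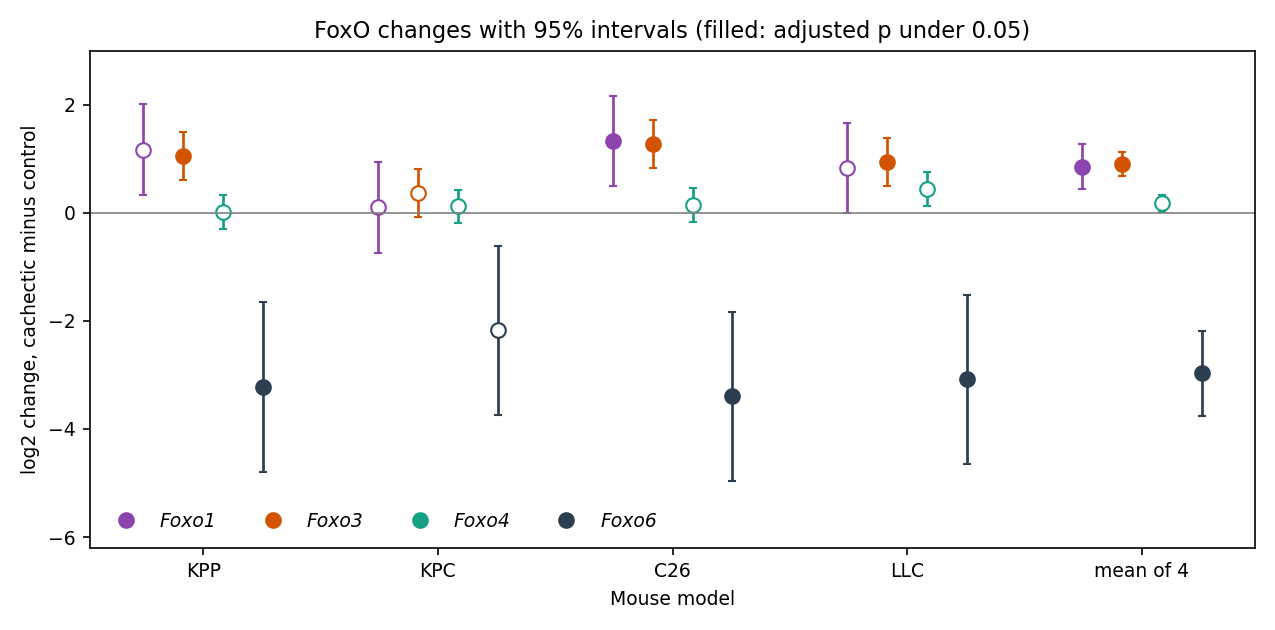
Log2 change of each FoxO gene, cachectic minus control, in the 4 models and as their mean, with 95% intervals from the limma fit. Filled points passed an adjusted p under 0.05; Foxo6 lies between -3.40 and -2.18 and Foxo4 between 0.02 and 0.44.

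The size of the change was not shown to differ between models for any member. An F test for unequal effects in the 4 models gave adjusted p = 0.441 for Foxo1, 0.305 for Foxo3, 0.496 for Foxo4 and 0.772 for Foxo6, where 0.116% of all genes were called. Pairwise, 0.025% of all genes differed in KPP minus KPC, 0.299% in KPP minus C26, 0.0333% in KPP minus LLC, 0.0582% in KPC minus C26, 0% in KPC minus LLC and 0.116% in C26 minus LLC. Among the 6 pairwise differences of each FoxO gene, the smallest adjusted p was 0.218, for Foxo3 in KPC minus C26 (-0.91, 95% interval -1.54 to -0.28). For Foxo6 the KPP minus C26 difference was 0.17 with an interval of -2.05 to 2.39. Without KPC cachectic 1 the F test of Foxo6 passed (adjusted p = 0.0307), the remaining KPC cachectic library being the one near its controls.

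Next to Foxo6 lies Foxo6os, a noncoding gene that GENCODE vM21 types as antisense. Foxo6 spans chr4:120267079-120287349 on the minus strand and Foxo6os chr4:120291350-120303892 on the plus strand (GRCm38), with 4000 bases between them and no shared exon. Foxo6os had 25 and 5 reads in KPP cachectic libraries and 190 and 105 in KPP controls. It had 10 and 23 reads in LLC cachectic libraries and 145 and 185 in LLC controls. In KPC it had 6 and 71 reads in cachectic libraries and 102 and 124 in controls, the same split between libraries as for Foxo6. In C26 it had 3 and 3 reads in cachectic libraries and 35 and 17 in controls. No C26 library exceeded 0.907 CPM of Foxo6os, whereas the C26 controls had 5.28 and 5.12 of Foxo6.

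Foxo6os fell in LLC (-3.51 ± 0.92, adjusted p = 0.0431) and was called lower in C26 (adjusted p = 0.0431). The KPP value of -3.77 ± 0.92 (adjusted p = 0.0564) and the KPC value of -2.21 ± 0.92 (adjusted p = 0.566) did not pass. Over the models it fell by 3.06 ± 0.46 (adjusted p = 0.000924). After the mean of each model was subtracted, Foxo6 and Foxo6os correlated with Pearson r = 0.971 and Spearman rho = 0.897 over the 16 libraries. These points share the difference between cachectic and control muscle, so the value describes both genes falling together. Whether reads were counted by strand is not given in the sources used here.

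**Figure D3:**
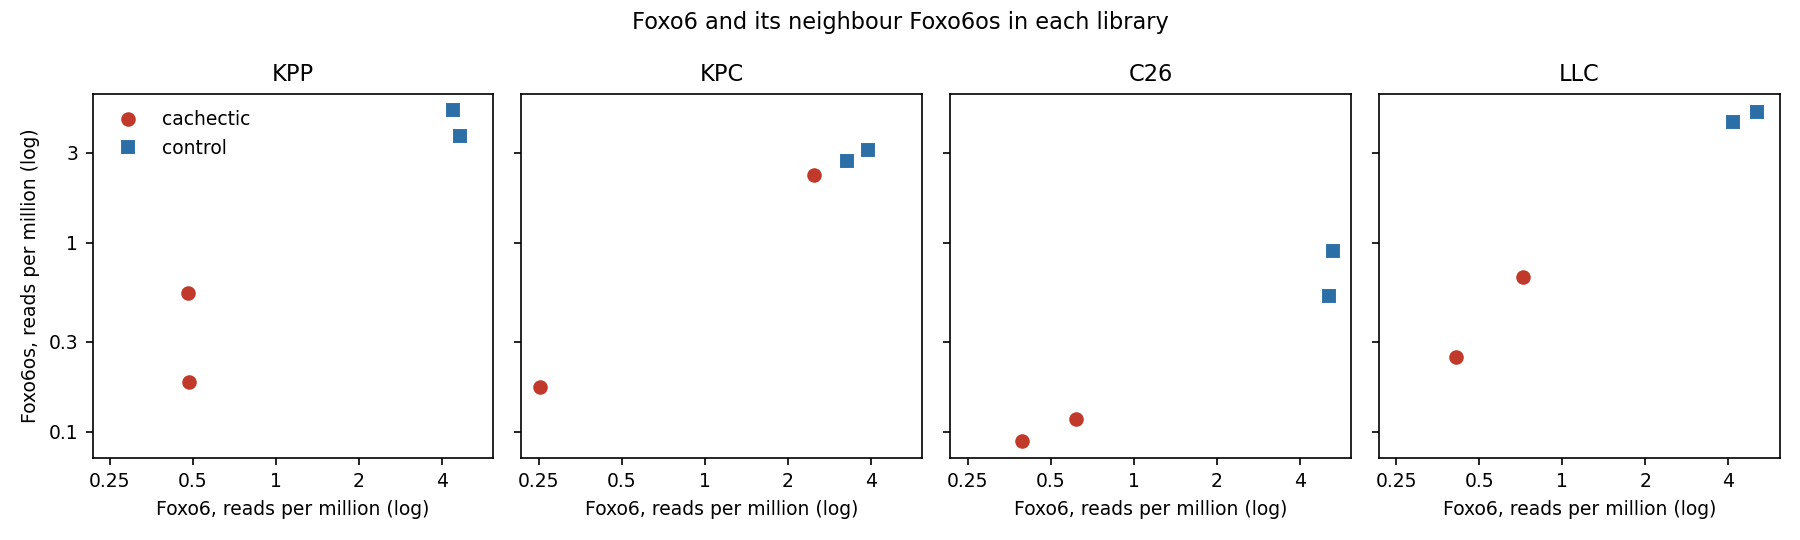
CPM of Foxo6os against Foxo6 on log axes, a panel per model, with cachectic libraries as red circles and controls as blue squares. Cachectic libraries lie to the lower left, apart from KPC cachectic 2, which lies beside its controls, and all C26 libraries lie low on the Foxo6os axis.

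Levels of different genes can be compared only per length. Foxo1 (chr3:52268336-52353221, plus strand) has 8665 bases of exon in GENCODE vM21, Foxo3 (chr10:42181841-42276755, minus strand) 7571, Foxo4 3485 and Foxo6 2615. In RPKM (reads per kilobase of exon per 1000000 reads), group means were 17.8 to 26.3 for Foxo4, 3.95 to 12.3 for Foxo3, 1.58 to 7.20 for Foxo1 and 0.179 to 1.98 for Foxo6. Foxo4 was therefore the main FoxO transcript in every group. Its share of the summed FoxO level was 64.8% ± 5.71 in KPP cachectic and 75.9% ± 1.69 in KPP control muscle (SD, n = 2), and 54.1% ± 4.72 in C26 cachectic and 67.7% ± 4.23 in C26 control muscle. It was 75.7% ± 0.0753 in KPC cachectic and 75.4% ± 0.786 in KPC control muscle, and 68.7% ± 2.51 in LLC cachectic and 70.4% ± 0.326 in LLC control muscle. The share of Foxo3 was 23.8% in KPP cachectic and 13.7% in KPP control muscle, 16.7% and 14.0% in KPC cachectic and control, 29.0% and 16.7% in C26 cachectic and control, and 22.7% and 16.4% in LLC cachectic and control. The share of Foxo6 was 0.442% in KPP cachectic and 5.01% in KPP control muscle, 1.88% ± 2.28 in KPC cachectic and 4.82% ± 0.421 in KPC control muscle, 0.440% in C26 cachectic and 6.59% in C26 control muscle, and 0.598% in LLC cachectic and 7.0% in LLC control muscle. Exons of Foxo1 share 674 bases with the antisense gene Gm20402 (GRCm38), so reads of that gene may be counted for Foxo1 if strand was not used.

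**Figure D4:**
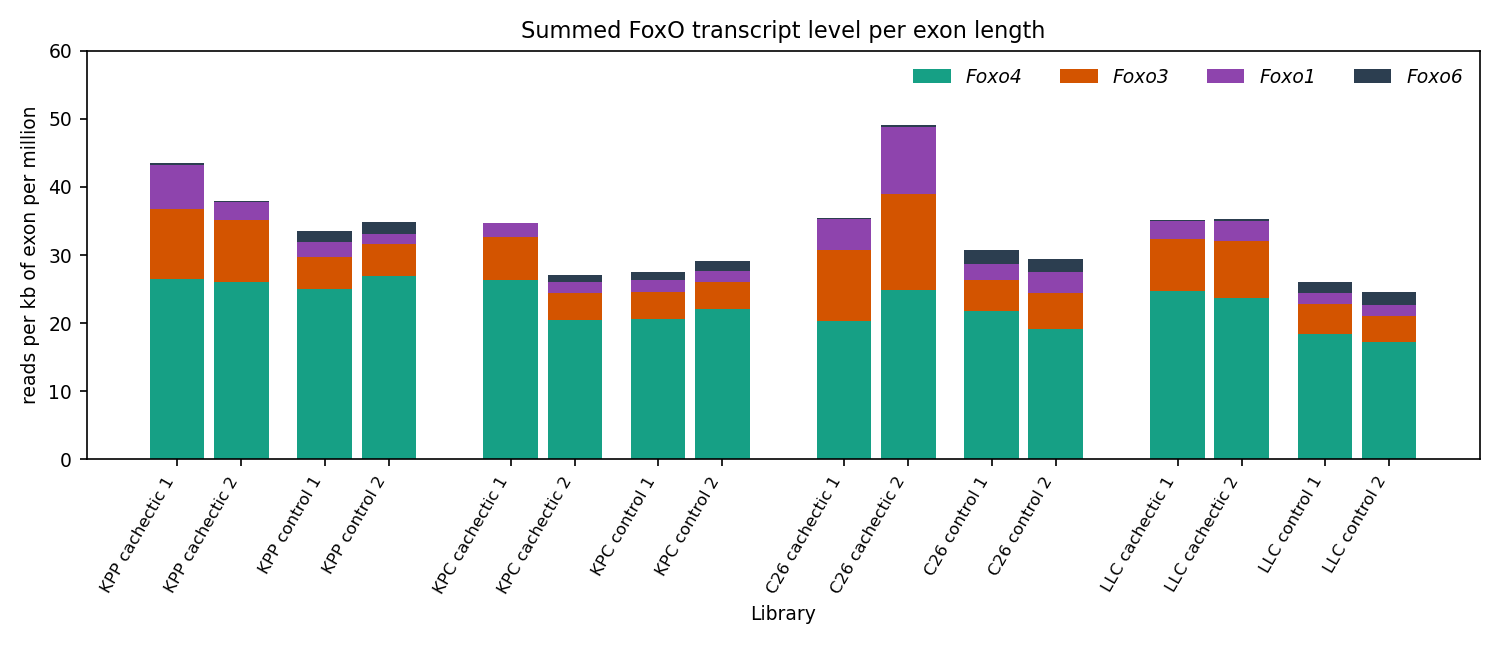
Summed level of the 4 FoxO genes in each library, in RPKM (reads per kilobase of exon per 1000000 reads), stacked by gene. Foxo4 forms the largest part of every bar, and the Foxo6 part is thin in cachectic libraries other than KPC cachectic 2.

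The order of the groups differed between members. For Foxo1 the highest means were in C26 cachectic (62.4 CPM), KPP cachectic (39.4) and LLC cachectic (24.4) muscle. C26 controls (23.4) came next, and each of these overlapped its neighbour. KPP control, KPC cachectic, KPC control and LLC control muscle followed at 13.7 to 16.1, again with overlapping neighbours. For Foxo3 the order was C26 cachectic (92.8), KPP cachectic (73.5), LLC cachectic (60.7) and KPC cachectic (39.6), then the controls of C26 (38.0), KPP (35.5), LLC (31.5) and KPC (30.0). KPP and LLC cachectic muscle did not overlap, nor did LLC and KPC cachectic muscle, while KPC cachectic muscle overlapped the C26 controls. Foxo4 was highest in KPP cachectic (91.6) and KPP control muscle (90.5), which overlapped, and lowest in LLC controls (62.1). Foxo6 was highest in the 4 control groups (3.59 to 5.20) and lowest in the cachectic groups of KPC (1.37), LLC (0.565), C26 (0.506) and KPP (0.482), whose neighbours overlapped.

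Upstream of FoxO, genes of IGF, insulin, PI3 kinase and Akt signalling were mostly called as rising where they were called. Of 15 listed, 7 rose and 1 fell in the mean over the models, with a median of 0.28 against 0.10 for all genes. By model, 2 rose and 0 fell in KPP, 0 changed in KPC, 7 rose and 0 fell in C26, and 2 rose and 1 fell in LLC. Over all genes, 27.3% rose and 13.8% fell in the mean, 0.707% rose in KPP, 23.2% rose in C26, and 3.42% rose and 3.66% fell in LLC; the counts of the lists that follow stand against the same shares. Pik3r1, the regulatory subunit of PI3 kinase, stood at 154 and 127 CPM in KPP cachectic libraries and 50.9 and 55.6 in KPP controls, and at 317 and 296 in C26 cachectic libraries and 74.0 and 101 in C26 controls. It rose by 1.33 ± 0.16 in the mean (adjusted p = 0.000379). Igf1r, the IGF1 receptor, rose by 0.87 ± 0.11 (adjusted p = 0.000452), and Insr, the insulin receptor, by 0.47 ± 0.10 (adjusted p = 0.00482). The ligand Igf1 fell in the mean by 0.69 ± 0.11 (adjusted p = 0.00101). It stood at 7.88 and 10.6 CPM in LLC cachectic libraries and 30.1 and 33.5 in LLC controls, a fall of 1.80 ± 0.21 (adjusted p = 0.00319) that was not called without LLC control 2. In C26 it stood at 23.0 and 23.0 in cachectic libraries and 18.2 and 28.6 in controls. Irs2, an insulin receptor substrate, was at 0.63 ± 0.25 in the mean (adjusted p = 0.0563).

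Among 19 measured of 21 regulators that modify or carry FoxO proteins, 3 rose and 0 fell in the mean, with a median of 0.09 against 0.10 for all genes. By model, 3 rose in C26 and 1 fell in LLC, and 0 changed in KPP and KPC. The acetyltransferase Crebbp rose by 0.52 ± 0.09 (adjusted p = 0.00189) and its relative Ep300 by 0.28 ± 0.07 (adjusted p = 0.00933). Xpo1, the exportin that carries FoxO out of the nucleus, fell in LLC by 0.47 ± 0.13 (adjusted p = 0.0488), a call lost without LLC cachectic 1 or either LLC control.

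Of 12 transcription factors that act with FoxO or beside it in atrophy, 6 rose and 1 fell in the mean, with a median of 0.22. By model, 1 rose in KPP, 0 changed in KPC, 4 rose in C26, and 2 rose and 1 fell in LLC. Klf15, a glucocorticoid-induced factor, rose in KPP (1.10 ± 0.24, adjusted p = 0.0466), C26 (0.99, adjusted p = 0.0149) and LLC (1.45, adjusted p = 0.0112). Cebpd rose by 2.09 ± 0.39 in the mean (adjusted p = 0.00226). Stat3, which carries interleukin-6 signals, stood at 145 and 154 CPM in C26 cachectic libraries and 45.7 and 49.9 in C26 controls, a rise of 1.65 ± 0.35 (adjusted p = 0.00911). Smad3, which carries myostatin and activin signals, fell in LLC by 1.22 ± 0.23 (adjusted p = 0.0171). Nr3c1, the glucocorticoid receptor, was at -0.04 ± 0.09 in the mean (adjusted p = 0.735), and the coactivator Ppargc1a at -0.09 ± 0.19 (adjusted p = 0.709).

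The ubiquitin ligases Fbxo32 and Trim63, the best known FoxO targets in muscle, rose in C26, and Fbxo32 also in LLC. Fbxo32 stood at 1569 and 2110 CPM in C26 cachectic libraries and 207 and 163 in C26 controls, and at 3785 and 1048 in LLC cachectic libraries and 359 and 244 in LLC controls. In KPP it stood at 481 and 308 in cachectic libraries and 329 and 426 in controls, and the groups overlapped. In KPC it stood at 1600 and 497 in cachectic libraries and 296 and 377 in controls. The changes were 3.31 ± 0.56 in C26 (adjusted p = 0.00431), 2.75 in LLC (adjusted p = 0.0208), 0.04 in KPP (adjusted p = 0.976) and 1.42 in KPC (adjusted p = 0.566). The LLC call was lost without LLC cachectic 1 (1.82) or either LLC control. Without KPC cachectic 2 and LLC cachectic 1 the KPC value was 2.26, with 1 KPC cachectic library left.

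Trim63 stood at 440 and 617 CPM in C26 cachectic libraries and 111 and 112 in C26 controls, a rise of 2.23 ± 0.58 (adjusted p = 0.0188). In KPP it stood at 578 and 206 in cachectic libraries and 142 and 193 in controls (1.06 ± 0.58, adjusted p = 0.319). Of the 6 ligases listed, 4 rose and 0 fell in the mean, with a median of 0.57; 3 rose in C26, 1 in LLC and 0 in KPP and KPC. Fbxo31, a ligase subunit, rose by 0.86 ± 0.17 in the mean (adjusted p = 0.00287), and Itch by 0.27 ± 0.08 (adjusted p = 0.0143).

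Among 12 autophagy and lysosome targets, 6 rose and 0 fell in the mean, with a median of 0.39, where 27.3% of all genes rose. By model, 3 rose in C26, 5 in LLC and 0 in KPP and KPC, against 23.2% of all genes in C26 and 3.42% in LLC. These C26 and LLC counts changed when single libraries were left out. Map1lc3b, which encodes the autophagosome protein LC3B, stood at 293 and 300.2 CPM in C26 cachectic libraries and 98.4 and 96.3 in C26 controls, and rose by 1.61 ± 0.37 (adjusted p = 0.0121). Gabarapl1, its relative whose promoter is printed above, rose by 1.05 ± 0.26 in C26 (adjusted p = 0.0155) and by 0.99 in LLC (adjusted p = 0.0423), but it was at 0.80 in LLC (adjusted p = 0.0867) without KPC cachectic 2 and LLC cachectic 1. Bnip3l, a mitophagy receptor, rose in LLC by 1.12 ± 0.21 (adjusted p = 0.0165). Ctsl, the lysosomal protease cathepsin L, rose by 1.09 ± 0.24 in the mean (adjusted p = 0.00427).

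Metabolic and antioxidant targets were called at near the rate of all genes in the mean and in C26. Of 11 measured of 12, 2 rose and 2 fell in the mean, with a median of 0.21; 3 rose and 1 fell in C26, 1 rose in LLC, and 0 changed in KPP and KPC. Over all genes, 27.3% rose and 13.8% fell in the mean, and 23.2% rose and 5.12% fell in C26. Sesn1, a stress-induced inhibitor of mTORC1, rose by 1.41 ± 0.20 (adjusted p = 0.000719) and Angptl4, an inhibitor of lipoprotein lipase, by 1.57 ± 0.41 (adjusted p = 0.0104). Sod2, the mitochondrial superoxide dismutase, fell by 0.58 ± 0.09 (adjusted p = 0.00122), and Prdx3, a mitochondrial peroxiredoxin, fell by 0.24 ± 0.08 (adjusted p = 0.028). The Prdx3 call was lost when any of several single libraries was left out. Pdk4, which blocks pyruvate oxidation, ranged widely within groups, with 345 and 1594 CPM in C26 cachectic libraries and 122 and 216 in C26 controls, and its mean of 0.97 ± 0.41 did not pass (adjusted p = 0.0760). In the fit without KPC cachectic 2 and LLC cachectic 1 the Pdk4 mean was 1.49.

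Of 12 growth, cell cycle and death targets, 11 rose and 1 fell in the mean, with a median of 0.59; 2 rose in KPP, 5 in C26, 5 in LLC and 0 in KPC. Cdkn1a, the cell cycle inhibitor p21, stood at 45.2 and 21.9 CPM in C26 cachectic libraries and 2.26 and 3.11 in C26 controls, a rise of 3.57 ± 0.46 (adjusted p = 0.00149). Eif4ebp1, a repressor of translation, stood at 115 and 184 in C26 cachectic libraries and 22.5 and 23.2 in C26 controls, and rose in the mean by 1.86 ± 0.32 (adjusted p = 0.00145). Gadd45a rose by 0.88 ± 0.13 (adjusted p = 0.000776). The gene that fell was Bcl6, a transcriptional repressor, named after its value was seen (-0.50 ± 0.17, adjusted p = 0.0357). The Bcl6 call was lost with a replicate block, and when any of several single libraries was left out. Among 6 feedback targets in insulin signalling, 3 rose and 0 fell in the mean, with a median of 0.38. By model, 2 rose in C26, 1 in LLC and 0 in KPP and KPC. All 6 were also counted in lists above: Irs2, Insr, Pik3ip1 and Pik3ca upstream, Sesn3 as metabolic and Rictor as growth. Their calls add none to those already given.

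**Figure D5:**
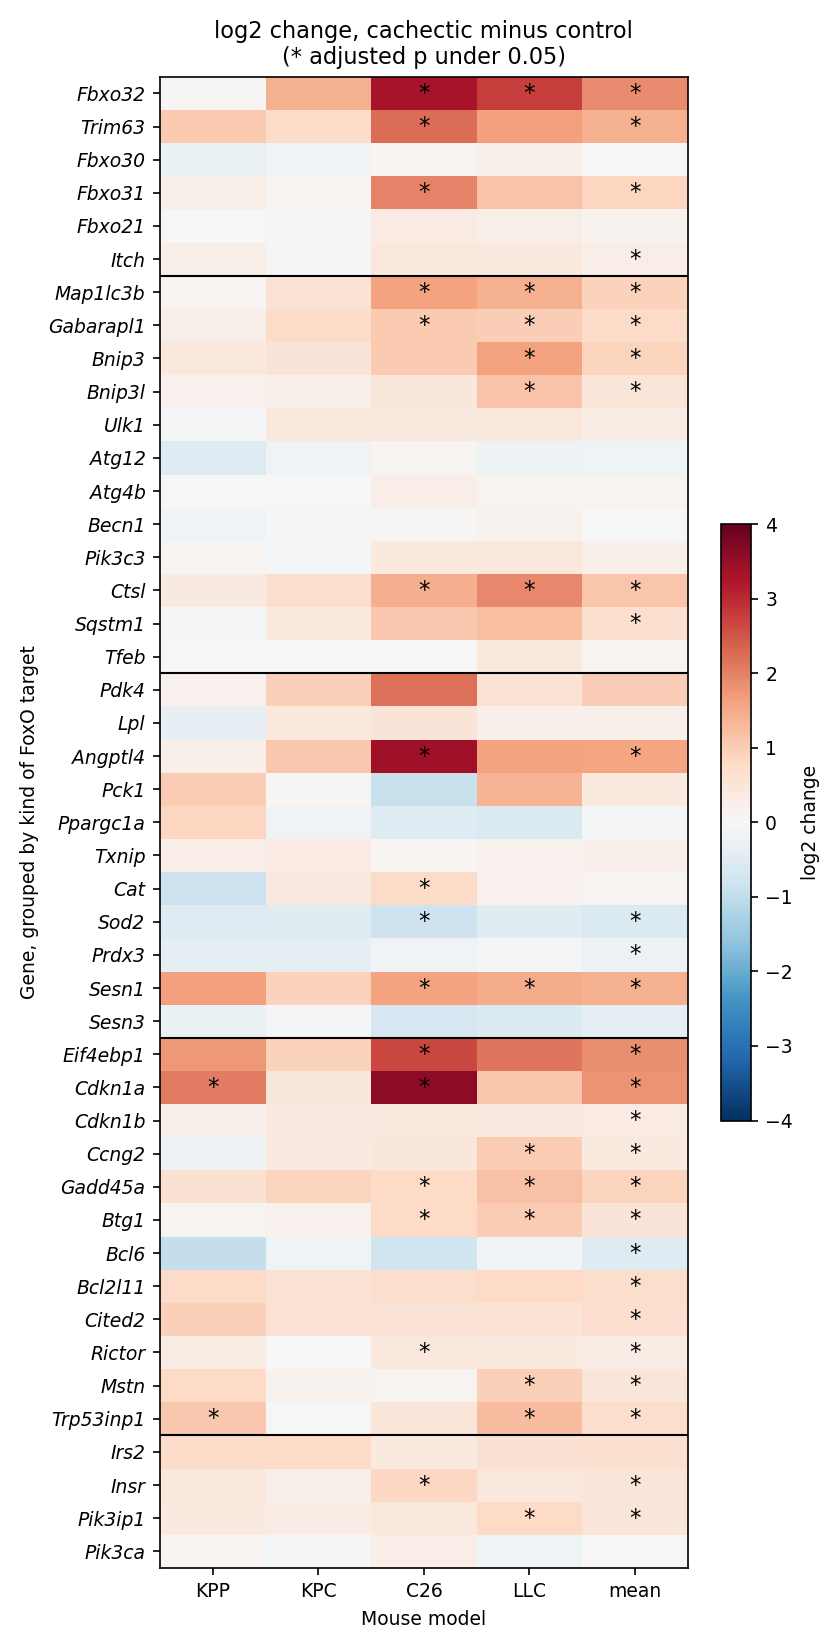
Log2 change, cachectic minus control, of the measured FoxO targets in each model and as the mean of 4, from blue (lower) to red (higher), with a star where the adjusted p was under 0.05. Lines part ligases, autophagy, metabolic, growth and feedback genes from top to bottom, and a gene in 2 lists is drawn once. Stars are most frequent in C26, LLC and the mean, and the KPC column holds none.

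Calls of listed genes within a model rested on few libraries. Of the calls made over the 9 lists, 0 of 6 in KPP, 3 of 32 in C26 and 0 of 19 in LLC were kept whichever library of the model was left out, against 40 of 50 in the mean. The 3 were Fbxo32, Fbxo31 and Cdkn1a in C26. The median gene of a library stood at log2 3.95 and 3.92 in C26 cachectic libraries and 3.69 and 3.70 in C26 controls. Centring on it left 2 rather than 7 upstream genes and 0 rather than 3 regulators rising in C26. It also left 2 rather than 4 factors and 2 rather than 5 growth targets rising there. The fit without KPC cachectic 2 and LLC cachectic 1 left 1 cachectic library in KPC and in LLC. In C26 and KPP it kept every difference and changed only the spread, which all groups share. Sqstm1 in C26 was at 1.06 in both fits. More listed genes were called in KPP, KPC and C26 in that fit, but its counts are not read as results about the lists. With LLC cachectic 1 alone left out, every one of the 19 LLC calls apart from Igf1 was lost.

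The table held 10 other forkhead genes. In the mean, 5 rose and 1 fell, with a median of 0.27, where 27.3% of all genes rose and 13.8% fell. By model, 1 rose in KPP, 3 in C26 and 0 in KPC and LLC, the C26 count being near the 23.2% of all genes. Foxk1, a repressor of autophagy genes in muscle, stood at 28.3 and 43.1 CPM in C26 cachectic libraries and 14.8 and 16.2 in C26 controls, and rose in the mean by 0.86 ± 0.13 (adjusted p = 0.00101). Foxp2 stood at 9.93 and 13.3 in KPP cachectic libraries and 4.45 and 4.25 in KPP controls, and rose in KPP by 1.404 ± 0.31 (adjusted p = 0.0463). With centred libraries 1 rose and 1 fell in the mean, and leaving out single libraries gave 1 to 5 rising.

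Some genes followed a FoxO gene closely over the 16 libraries once the mean of each model was subtracted. These points share the difference between cachectic and control muscle, and the correlations are descriptive. Spsb1 was closest to Foxo1 (Pearson r = 0.948), and Braf, a kinase of the MAP kinase pathway, to Foxo3 (r = 0.984), followed by Plin4, a lipid droplet coat protein (r = 0.982). Dpyd, which breaks down pyrimidines, was closest to Foxo4 (r = 0.955). Cox7a1, the muscle form of a cytochrome oxidase subunit, was closest to Foxo6 (r = 0.984), followed by Cilp2 (r = 0.982) and Mdh2, the mitochondrial malate dehydrogenase (r = 0.979). Running most opposite to Foxo3 was Dld, a subunit of mitochondrial dehydrogenases (r = -0.975), and to Foxo6 Tbc1d4, a substrate of Akt that controls glucose transporter traffic (r = -0.986). Tbc1d4 stood at 56.2 and 19.6 CPM in KPC cachectic libraries and 17.8 and 16.6 in KPC controls, with KPC cachectic 2 again near its controls. Among the members, r was 0.888 between Foxo1 and Foxo3, -0.934 between Foxo3 and Foxo6 and -0.727 between Foxo1 and Foxo6.

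Markers of other cell types moved with the groups. The 6 endothelial markers summed to 455 to 472 CPM in C26 cachectic libraries and 296 to 317 in C26 controls. They summed to 314 to 326 in KPP cachectic libraries and 355 to 370 in KPP controls, but the members moved apart in KPP and 0 were called. Kdr was at -1.13, Emcn at -0.66, Tek and Cdh5 at -0.19, Pecam1 at 0.06 and Vwf at 0.82. The 7 macrophage markers summed to 193 to 198 in C26 cachectic libraries and 77.7 to 91.4 in C26 controls. The sum of the 7 fibroblast markers was lower in each cachectic group, for example 354 to 529 in LLC cachectic libraries and 1087 to 1213 in LLC controls, but its members moved apart. Of the 7, 4 fell in KPP and 3 in LLC, Col1a1 among them in both, while in C26 Col1a1 fell (-3.09, adjusted p = 0.0146) and Pdgfra (0.86, adjusted p = 0.0230) and Ly6a (1.25, adjusted p = 0.00609) rose. The sum of the 3 tendon markers was lower in KPP, C26 and LLC (22.2 to 56.4 in LLC cachectic libraries and 113 to 122 in LLC controls) and overlapped in KPC (36.7 to 79.6 in KPC cachectic libraries and 75.3 to 107 in KPC controls). Its member Scx was at 1.41 in KPP (adjusted p = 0.0950) and 0.06 in C26 (adjusted p = 0.917), and Tnmd at -2.99 in KPP (adjusted p = 0.0556) and -2.97 in C26 (adjusted p = 0.0155). The 4 erythroid markers were higher in each cachectic group, with 1242 to 2684 in LLC cachectic libraries and 111 to 126 in LLC controls. Slow-fibre markers, 3 measured of 5, summed to 8.02 to 13.6 in C26 cachectic libraries and 20.3 to 20.7 in C26 controls, where Myl3 fell (-2.08, adjusted p = 0.0261) and Myh7 was at -0.14 (adjusted p = 0.914) and Tnnt1 at -0.05 (adjusted p = 0.940). Of the T cell markers Cd3e, Cd3d and Cd8a, 0 were among the listed genes. The part of these cells in the FoxO values was not tested.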

How the data were processed

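RNA was measured in 16 libraries of mouse tibialis anterior, 2 in each of 8 groups taken from the sample titles. Per the submitters' processing notes, reads were counted with featureCounts 1.4.5 on GRCm38 and processed with limma; no source used here names the aligner, the strand setting or any low-count filter. Log2 values of 12021 genes were deposited by the authors as 1 table, and 11990 of the genes carried a symbol. Each value gave a whole number of reads (100% of values, tolerance 1e-04) as log2 of reads with 0.5 added per 1000000 reads, so depths of 28584279 to 46972882 reads were recovered.

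Libraries were compared by limma 3.58.1 under R 4.3.3, from the deposited values: 1 mean per group, eBayes with a trend, two-sided tests, Benjamini-Hochberg adjustment over all genes that reached a log2 value of 0 in 2 libraries (all 12021), and a call under 0.05. The fit was tested on simulated data. Single means were permuted exactly in Python 3.11.15. Promoters and GENCODE vM21 lengths were looked up by symbol and Ensembl identifier. The FoxO genes and the lists (9 of pathway genes, 13 of markers) were chosen with earlier results of these data known. From each list the text names up to 4 genes per comparison with the smallest p, 10 genes whatever their values (Fbxo32, Trim63, Pdk4, Eif4ebp1, Igf1, Irs2, Pik3r1, Klf15, Nr3c1, Ppargc1a), and genes whose pattern over 16 libraries was most like a FoxO gene, among genes averaging 1 or more on the log2 scale. Alternatives were median centring, quantile normalization, other filters (mean log2 of at least 2, none), no trend, robust variances, voom weights on the recovered reads, a replicate block, a threshold of 0.10, fits within single models, omission of each library or each model and, chosen after seeing the data, KPC cachectic 2 and LLC cachectic 1 left out together. Other summed markers were checked too. Satellite cell markers had 23.7 to 32.9 CPM in KPP cachectic libraries and 26.5 to 27.3 in KPP controls. Adipocyte markers had 156 to 182 in C26 cachectic libraries and 96.9 to 130 in C26 controls, but the members moved apart. In C26 Fabp4 was at 0.63 (limma, adjusted p = 0.0330), Adipoq at -0.23 (adjusted p = 0.729) and Plin1 at -0.69 (adjusted p = 0.324). Pericyte markers had 668 to 716 in C26 cachectic libraries and 651 to 669 in C26 controls. Schwann cell markers had 35.6 to 36.2 in C26 cachectic libraries and 40.4 to 57.1 in C26 controls. The neutrophil value was that of S100a9 alone, 1 measured of 3. It was 2.28 to 4.11 in LLC cachectic libraries and at most 0.0298 in LLC controls.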

Additional observations from a re-analysis of the deposited data

Results flagged for a closer look

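Differences between models were tested for every gene named. The only one to pass concerned Igf1, whose effect in C26 minus that in LLC was 1.81, where 0.116% of all genes passed. The F test for unequal Igf1 effects in the 4 models did not pass (adjusted p = 0.0869). Its level was 23.0 and 23.0 CPM in C26 cachectic libraries and 18.2 and 28.6 in C26 controls, and 7.88 and 10.6 in LLC cachectic libraries and 30.1 and 33.5 in LLC controls. The model and its mouse strain cannot be told apart here.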

How the results depend on the processing

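Of the FoxO changes, the means of Foxo1, Foxo3 and Foxo6 kept their direction and call in every alternative run (30 for Foxo1 and Foxo3 and 29 for Foxo6, which a mean log2 filter of 2 removed). Calls within a model were less stable, with 2 libraries a group. The Foxo1 rise in C26 lost its call after centring (1.09) and quantile normalization (1.09). The Foxo3 rise in KPP lost it without the trend (1.05), and in LLC with only the libraries of that model (0.95). The Foxo6 fall in KPP lost it after centring (-3.22), quantile normalization (-3.25), without the trend (-3.22) and with robust variances (-3.22), and in LLC with only that model's libraries (-3.08). Foxo4 in C26 turned to -0.0938 after centring and -0.10 after quantile normalization. At an adjusted p under 0.10 Foxo4 passed in LLC (0.44) and in the mean (0.18), which also passed without model KPC (0.20). Without KPC cachectic 2 and LLC cachectic 1, chosen after seeing the data, the KPC difference was 0.70 for Foxo3 and -3.83 for Foxo6. Each rested on 1 cachectic library, and the Foxo4 mean was 0.22 in that fit. Differences of effects in KPP minus C26 turned sign on centring for Foxo1 (0.0901), Foxo3 (0.0175) and Foxo4 (0.12), as did KPC minus C26 for Foxo4 (0.21). The cause was not tested.

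Leaving out single libraries gave, for Foxo1, 0.51 to 1.83 in KPP, -0.0390 to 0.24 in KPC (-0.0390 without KPC cachectic 1) and 0.78 to 1.87 in C26. For Foxo3 it gave 0.95 to 1.15 in KPP, 0.0232 to 0.70 in KPC, 1.05 to 1.5 in C26 and 0.84 to 1.05 in LLC. For Foxo4 it gave -0.0335 to 0.0675 in KPP (-0.0335 without KPP control 1), -0.0618 to 0.30 in KPC (-0.0618 without KPC cachectic 1), -0.00157 to 0.29 in C26, 0.40 to 0.49 in LLC (adjusted p = 0.0495 without LLC cachectic 2) and 0.14 to 0.23 in the mean. For Foxo6 it gave -3.27 to -3.18 in KPP, -3.83 to -0.53 in KPC, -3.72 to -3.07 in C26 and -3.48 to -2.68 in LLC, and an adjusted p of the F test of 0.0307 to 0.894.

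Genes called over the whole table numbered 214 in KPP, 0 in KPC, 3409 in C26, 851 in LLC, 4938 in the mean and 14 in the F test. Single libraries left out gave 8 to 99 in KPP, 0 to 949 in KPC, 191 to 1292 in C26, 3 to 3711 in LLC and 0 to 1404 in the F test. Counts also moved at an adjusted p under 0.10 (887 in KPP, 2106 in LLC, 52 in the F test), without the trend (94 in KPP, 1 in KPC), with robust variances (1 in KPC), with voom weights (1 in KPC), with only the libraries of a model (1124 in KPP, 5152 in C26, 0 in LLC), after centring (1952 in C26), after quantile normalization (2052 in C26) and with a mean log2 of at least 2 (8 in the F test). The mean had 1753 without model C26, and the F test 0, 45, 1 and 49 without model C26, KPC, KPP and LLC. Without KPC cachectic 2 and LLC cachectic 1 there were 2614 in KPC and 1782 in the F test. After centring, 53.6% of the KPP calls rose, against 39.7% as deposited.

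Same-numbered libraries deviated together little or not at all (r = 0.0894 in KPP, -0.00299 in KPC, -0.0373 in C26 and 0.0207 in LLC). Pairing by number was thus not seen, but a weak shared effect within the spread of a group could be missed. With a replicate block 53 genes were called in KPP, 477 in LLC and 1 in the F test, and Foxo3 (1.05, adjusted p = 0.0584) and Foxo6 (-3.22, adjusted p = 0.0584) lost their KPP calls. Depth limits Foxo6 and Foxo6os, with as few as 9 and 3 reads in a library.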
